A study of Homo sapiens with 8 samples.

Results

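The genes described here are 10 that cells switch on when the ERK kinases are active: the phosphatases DUSP4, DUSP5 and DUSP6, the inhibitors SPRY2, SPRY4, SPRED1 and SPRED2, and the transcription factors ETV1, ETV4 and ETV5. They were chosen by name with their values in these 4 treatment groups already known, so the tests below place them among all genes and are not independent support. All 10 are on the array, among 18417 genes. Each has 1 probe set annotated with its symbol alone, so picking the brightest probe set of a gene left no choice to make. The cells were U373, a human astrocytoma cell line, and each of 4 groups was read on 2 whole-transcript Affymetrix arrays, 8 in all. Hormone-free serum was used beforehand in all groups, and treatment lasted 12 h: vehicle, 10 nM progesterone, 1 µM RU-486 (mifepristone, an antagonist of the progesterone and glucocorticoid receptors), or the combination of both at these doses. Replicates are labelled biological, with no word on whether cultures were separate, so a p-value reflects only the spread between these arrays, which may be technical.

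Growth factor receptors activate the ERK kinases through RAS, RAF and MEK, and active ERK induces genes that dampen the same route. DUSP4 and DUSP6 dephosphorylate ERK, in the nucleus and the cytoplasm respectively, DUSP5 does so in the nucleus, and Sprouty (SPRY) and SPRED proteins act on RAS and RAF upstream. ETV1, ETV4 and ETV5, the PEA3 group of ETS factors, carry the signal to other genes, and in the absence of ERK activity the repressor Capicua (CIC) holds several of these genes down. In glioma this route is commonly driven by altered growth factor receptors or loss of the RAS inhibitor NF1.

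The promoter sequences show where the words read by such factors lie in members that differ in their values below. The RefSeq table (GRCh38.p14) holds promoters for 6 of the 10 genes: DUSP6, SPRY2, SPRY4, SPRED1, SPRED2 and ETV1. Each is printed 5′ to 3′ on the gene's strand as the 250 bases before a start site, the most upstream start where there are several, in lower case with motif matches in capitals. Both strands were searched for the ETS core CCGGAA, the Capicua octamers TGAATGAA, TGAATGGA, TCAATGAA and TCAATGGA, the AP-1 word TGANTCA and the steroid receptor palindrome. The printed promoters are DUSP6 at chr12:89352502-89352751, SPRY2 at chr13:80341127-80341376, ETV1 at chr7:13991426-13991675 and SPRY4 at chr5:142324248-142324497, all on the minus strand.
DUSP6: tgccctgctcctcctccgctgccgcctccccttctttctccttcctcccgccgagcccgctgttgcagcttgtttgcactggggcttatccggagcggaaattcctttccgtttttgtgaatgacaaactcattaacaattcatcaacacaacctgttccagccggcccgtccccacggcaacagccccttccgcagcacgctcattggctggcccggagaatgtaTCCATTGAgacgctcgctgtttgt
SPRY2: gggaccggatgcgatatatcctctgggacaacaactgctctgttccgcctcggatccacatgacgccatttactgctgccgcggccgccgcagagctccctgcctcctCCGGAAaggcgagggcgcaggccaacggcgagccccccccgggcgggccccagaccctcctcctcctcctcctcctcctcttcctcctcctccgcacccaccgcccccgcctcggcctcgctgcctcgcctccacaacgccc
ETV1: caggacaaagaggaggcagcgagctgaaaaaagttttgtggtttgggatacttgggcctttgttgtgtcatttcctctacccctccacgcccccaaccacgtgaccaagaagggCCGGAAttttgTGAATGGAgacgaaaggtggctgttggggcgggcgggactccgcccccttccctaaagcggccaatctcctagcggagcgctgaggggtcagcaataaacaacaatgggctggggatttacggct
SPRY4: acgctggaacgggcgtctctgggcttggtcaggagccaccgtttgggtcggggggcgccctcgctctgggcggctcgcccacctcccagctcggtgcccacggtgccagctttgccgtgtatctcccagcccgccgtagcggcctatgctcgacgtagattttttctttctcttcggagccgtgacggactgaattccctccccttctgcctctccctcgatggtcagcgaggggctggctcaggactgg

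In DUSP6 the capitals mark a Capicua octamer read on the opposite strand, which begins 24 bases before the start site, and in SPRY2 an ETS core that begins 142 bases before it. ETV1 holds both, an ETS core that begins 136 bases and a Capicua octamer that begins 125 bases before the start, and the SPRY4 window holds none of the 4 motifs. An ETS core also lay in 2 further ETV1 windows, which overlap each other, while the windows of SPRED1 and SPRED2, the other 3 of ETV1 and the other 2 of SPRY2 held no match. None of the 14 windows of these 6 genes held the AP-1 word or the steroid receptor palindrome. Of 35116 promoter windows of the same length, 14.5% hold the ETS core, 3.18% a Capicua octamer, 6.57% the AP-1 word and 0.327% the palindrome. A match is a word in the reference sequence, and binding was not measured here.

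All 10 probe sets were above the dim end of the array, as were most genes. Each lay on all 8 arrays above 6.22, the value under which 95% of 341 olfactory receptor genes fall, and these are rarely transcribed outside the nose. Array medians over all probe sets ran from 6.93 to 7.02. Of 12 astrocyte and glioma markers 9 had means above 6.22, including GFAP, VIM, S100B, NES and SOX2, while AQP4, SLC1A2 and ALDH1L1 did not. Of 5 microglia and leukocyte markers 0 did, and the counts were 1 of 5 for endothelium, 1 of 4 for oligodendrocytes, 3 of 5 for neurons and 2 of 5 for epithelium. The progesterone replicates stood apart from each other, with an SD of 0.35 log2 units across genes for their difference, against 0.16 to 0.18 in the other groups. Replicate 1 of progesterone was above replicate 2 for 8 of the 10 genes, by up to 0.46 log2 units for DUSP6. Since all values come from bulk RNA, fewer cells expressing a gene and less RNA per cell cannot be told apart.

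RU-486 was compared with its absence over all 8 arrays, 4 with the drug and 4 without, with progesterone balanced on both sides. Of the 10 genes, 9 had a higher mean with RU-486, where 62.5% of all genes did, and SPRED1 had a lower one. In 7 genes (DUSP4, DUSP5, DUSP6, SPRY2, SPRY4, ETV4 and ETV5) every array with RU-486 lay above every array without it, a separation found in 4.51% of all genes. In the limma fit 8 members had an unadjusted p under 0.05 and a higher mean, where 6.53% of all genes did. After Benjamini-Hochberg adjustment over all genes 0 of the 10 passed 0.05, and 0.0326% of all genes did. The smallest adjusted p among them was 0.218, for SPRY2. The median log2 difference was 0.36 over the 10 genes and 0.03 over all genes.

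DUSP6, the cytoplasmic ERK phosphatase, had the highest difference. Its log2 values were 9.49 and 9.23 in vehicle, 9.37 and 8.91 in progesterone, 9.76 and 9.92 in RU-486 and 9.75 and 9.86 in the combination. Both RU-486 groups thus sat together above the other arrays, with vehicle replicate 1 the nearest of those. The difference was 0.57 ± 0.12 log2 units (SE, 4 against 4 arrays), or 1.49-fold, and it did not pass (limma adjusted p = 0.283). By p it ranked 101 of 18417 genes.

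DUSP4 and DUSP5, the nuclear phosphatases, differed less. DUSP4 was at 7.37 and 7.15 in vehicle, 7.35 and 7.12 in progesterone, 7.41 and 7.55 in RU-486 and 7.66 and 7.61 in the combination. RU-486 replicate 1 lay just above vehicle replicate 1, and the combination arrays were the highest. The difference was 0.31 ± 0.08 (SE, limma adjusted p = 0.397). DUSP5 ran from 7.82 to 8.01 without RU-486 and from 8.02 to 8.22 with it, with a difference of 0.18 ± 0.06 (SE, limma adjusted p = 0.430).

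SPRY2, which restrains receptor signalling to RAS and RAF, had the smallest p of the 10 genes and ranked 42 of 18417. Its log2 values were 8.50 and 8.45 in vehicle, 8.45 and 8.08 in progesterone, 8.87 and 8.89 in RU-486 and 8.87 and 8.94 in the combination. The 4 arrays with RU-486 lay close together and above all others, while progesterone replicate 2 was the lowest array. The difference was 0.52 ± 0.09 (SE), or 1.43-fold (limma adjusted p = 0.218). SPRY4, its relative, was at 8.05 and 8.01 in vehicle, 7.91 and 7.50 in progesterone, 8.22 and 8.44 in RU-486 and 8.11 and 8.33 in the combination. Here too the arrays with RU-486 were above all others, combination replicate 1 being the nearest to vehicle, and the difference was 0.41 ± 0.11 (SE, limma adjusted p = 0.394).

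The SPRED genes, whose products bind the RAS inhibitor NF1 and bring it to the membrane, did not separate the arrays with RU-486 from those without. SPRED2 was at 9.71 and 9.79 in vehicle, 9.69 and 9.52 in progesterone, 9.77 and 9.88 in RU-486 and 9.98 and 9.88 in the combination. RU-486 replicate 1 lay just below vehicle replicate 2, and the difference was 0.20 ± 0.07 (SE, limma adjusted p = 0.424). SPRED1 was at 8.63 and 8.78 in vehicle, 8.55 and 8.73 in progesterone, 8.53 and 8.75 in RU-486 and 8.24 and 8.51 in the combination. Replicate 2 was above replicate 1 in all 4 groups, the combination arrays were the lowest, and the difference was -0.16 ± 0.09 (SE, limma adjusted p = 0.531).

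Among the ETV factors, ETV4 and ETV5 separated the arrays with RU-486 and ETV1 did not. ETV5 was at 9.88 and 9.85 in vehicle, 9.91 and 9.54 in progesterone, 10.17 and 10.36 in RU-486 and 10.36 and 10.25 in the combination. Every array with RU-486 was above 10, every other array was below it, and the difference was 0.49 ± 0.09 (SE), or 1.40-fold (limma adjusted p = 0.267). ETV4 was at 7.95 and 7.85 in vehicle, 7.77 and 7.55 in progesterone, 8.06 and 8.19 in RU-486 and 8.63 and 8.25 in the combination. Its combination replicate 1 was the highest array by 0.37 log2 units over replicate 2, and the difference was 0.50 ± 0.10 (SE), or 1.41-fold (limma adjusted p = 0.280).
ETV1 was at 7.997 and 8.09 in vehicle, 7.67 and 7.74 in progesterone, 8.08 and 8.32 in RU-486 and 7.80 and 7.94 in the combination. Its arrays with and without RU-486 overlapped, and the difference was 0.16 ± 0.08 (SE, limma adjusted p = 0.477).

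**Figure D1:**
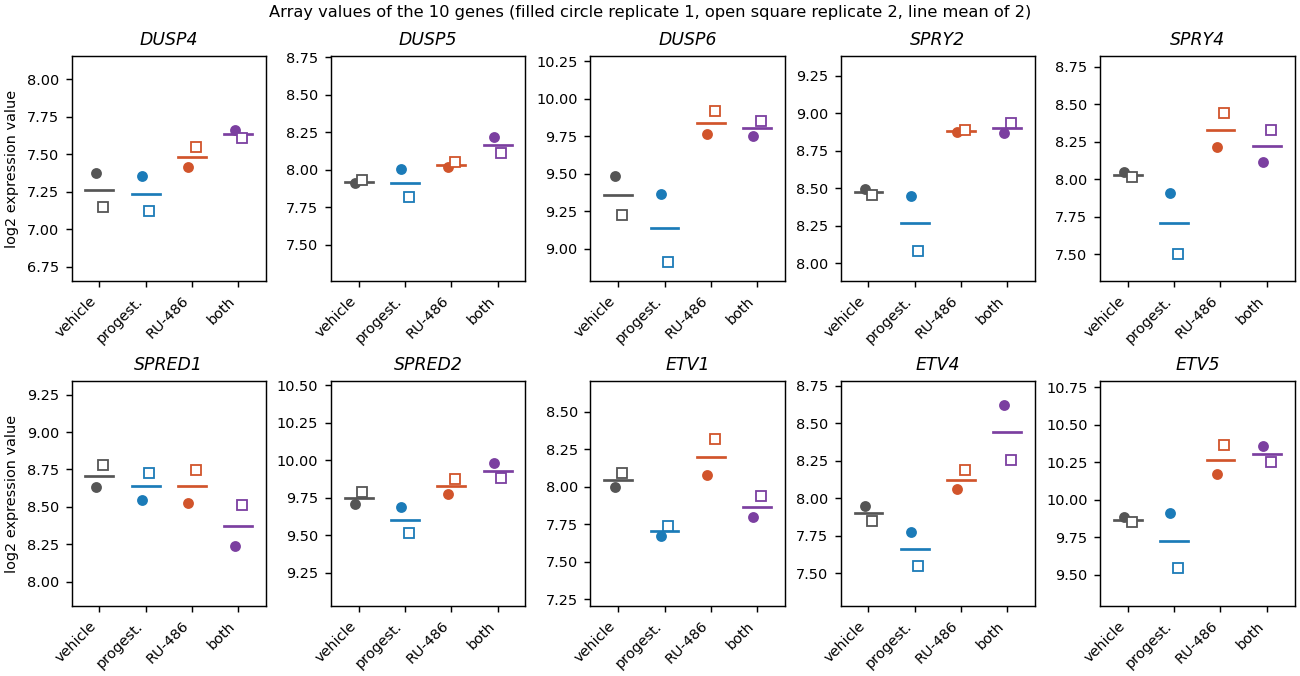
Log2 expression value of each of the 10 genes on each array, by treatment group; filled circles are replicate 1, open squares replicate 2 and lines the mean of 2 arrays, and each panel spans 1.5 log2 units around the gene's own mean. The arrays of RU-486 and of both steroids lie above all vehicle and progesterone arrays in 7 panels, and SPRED1, SPRED2 and ETV1 are the 3 panels in which they overlap.

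1 array changes what can be called. Without progesterone replicate 1, DUSP4, DUSP6, SPRY2, SPRY4, ETV4 and ETV5 had higher means with RU-486 that passed (limma adjusted p from 0.0257 for SPRY2 to 0.0489 for DUSP4), in a fit that called 998 genes, or 5.42% of all genes, 261 of them higher (1.42%). The remaining progesterone array was then the lowest of the 8 for DUSP4, DUSP6, SPRY2, SPRY4, ETV4 and ETV5, and the fit assumes that this lone array varies like the other groups. Over the 15 alternative settings the adjusted p of each of the 10 genes reached up to 0.933. Without progesterone replicate 2, 0 members were called and the differences were 0.46 for DUSP6 and 0.43 for SPRY2. In that same setting 7 genes, or 0.0380%, were called over the whole array. With the replicate number as a block, 0 members were called and their adjusted p ran from 0.0852 to 0.236. The sign of all 10 differences was the same under all 15 settings.

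Progesterone was compared with its absence in the same way, 4 arrays against 4. Of the 10 genes, 3 had a higher mean with progesterone, where 61.2% of all genes did, and 7 a lower mean. The means of SPRED2, ETV4 and ETV5 lay on the other side of 0 with at least 1 array left out. The median log2 difference was -0.07 over the 10 genes and 0.03 over all genes. ETV1 was the member with the smallest p: all 4 arrays with progesterone lay below all 4 without it, a separation downward found in 0.836% of all genes. Its difference was -0.34 ± 0.08 (SE), or 0.79-fold, rank 29 of 18417 by p, and it did not pass (limma adjusted p = 0.722). No gene of the array passed in this comparison in limma (0%), with 926 genes (5.03%) and, of the members, ETV1 alone at an unadjusted p under 0.05. SPRY4 stood at -0.22 ± 0.11 and SPRED1 at -0.16 ± 0.09, both with arrays that overlapped. Without progesterone replicate 2 the adjusted p of ETV1 was 0.0766, the lowest over its 15 settings, and its difference stayed between -0.40 and -0.27 with each array left out.

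**Figure D2:**
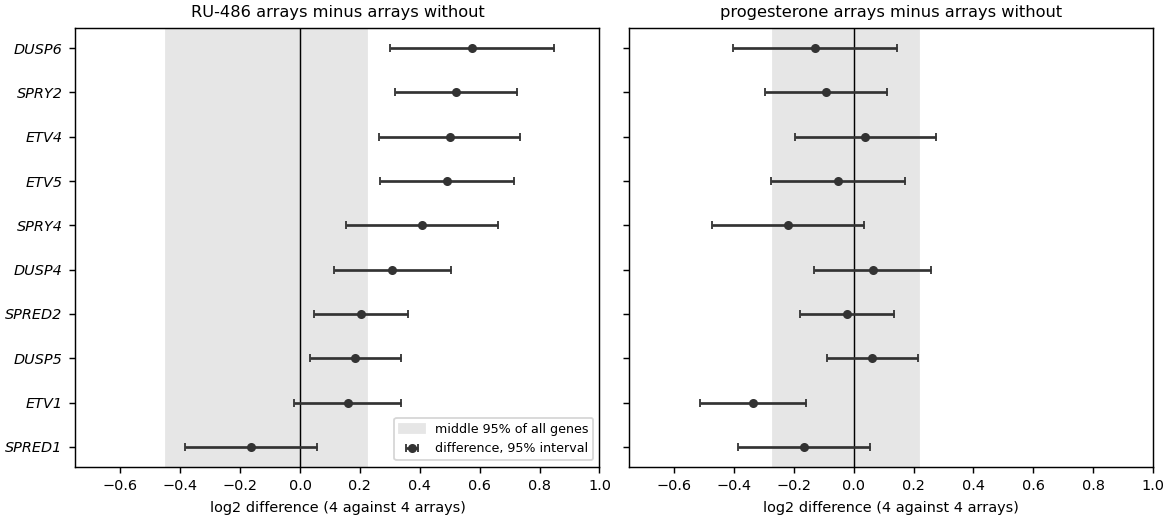
Log2 differences of the 10 genes for arrays with against arrays without RU-486 (left) and progesterone (right), 4 against 4 arrays, with 95% intervals from the limma fit that are not adjusted for the number of genes; the grey band holds the middle 95% of all 18417 genes. With RU-486, DUSP6, SPRY2, ETV4, ETV5, SPRY4 and DUSP4 lie above the band, whose upper edge is 0.22, and with progesterone ETV1 alone lies outside it, below -0.27.

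The effect of RU-486 can be read from 2 sets of arrays that are not shared: RU-486 against vehicle, and the combination against progesterone. In the pair of groups without progesterone 9 of 10 genes had a higher mean with the drug (55.3% of all genes), and in the pair with progesterone 9 of 10 did as well (56.7% of all genes). SPRED1 was the exception in both, and in the first pair it turned above 0 without vehicle replicate 2 or without RU-486 replicate 1. The arrays did not overlap, upward, for 7 members in the first pair, where 24.0% of all genes separated so, and for 9 in the second, where 28.1% did, while SPRED1 separated downward in the second (12.6% of all genes). 0 members were called in either, and 0% of all genes, with 3 and 8 members higher at an unadjusted p under 0.05, against 2.15% and 10.1% of all genes. The difference of DUSP6 was 0.49 ± 0.16 without and 0.66 ± 0.16 with progesterone, that of SPRY2 0.41 ± 0.12 and 0.63 ± 0.12, that of SPRY4 0.30 ± 0.15 and 0.51 ± 0.15, and that of ETV5 0.40 ± 0.13 and 0.58 ± 0.13 (SE). In the same order, limma's adjusted p was 1.00 in the first pair for each, and 0.266, 0.232, 0.275 and 0.265 in the second. Each SE pools the spread of all 4 groups, so it is the same in both pairs and is not the spread of the arrays compared. For SPRY2 the SD of the 2 arrays was 0.03 in vehicle, 0.01 in RU-486, 0.26 in progesterone and 0.05 in the combination. Without progesterone replicate 1, DUSP6, SPRY2, SPRY4, ETV4 and ETV5 were higher and passed in the second pair (limma adjusted p = 0.0427 for each), beside 1090 genes, or 5.92%, 307 of them higher (1.67%), and over the 16 settings their adjusted p reached up to 0.884.

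The difference between these 2 estimates is the interaction, and it did not pass for any member. It was above 0 for 9 of the 10 genes, where 52.4% of all genes were above 0, and 0% of all genes were called. The interaction of ETV4 was the highest, at 0.56 ± 0.20 (SE, limma adjusted p = 0.828), from 0.22 ± 0.14 without progesterone to 0.78 ± 0.14 with it. It ranged from 0.37 without combination replicate 1 to 0.74 without combination replicate 2. For DUSP6 and ETV5 the interaction, 0.18 ± 0.23 and 0.17 ± 0.19, turned below 0 without progesterone replicate 2, at -0.05 and -0.01. Without that array it also fell from 0.23 to 0.05 for SPRY2 and from 0.22 to 0.02 for SPRY4. For DUSP4 it fell from 0.18 to 0.06, for DUSP5 from 0.14 to 0.05 and for SPRED2 from 0.25 to 0.17. Much of the shared sign thus rested on that array. ETV1 had 0.16 in both pairs, with an interaction of 0.01 ± 0.15 that turned below 0 under 4 settings, down to -0.12 without RU-486 replicate 1.

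**Figure D3:**
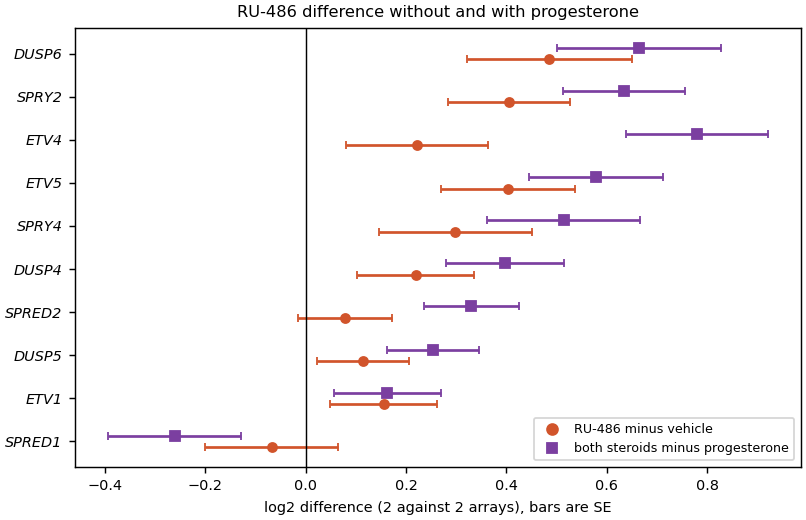
Log2 difference with RU-486 for each gene in the absence of progesterone (circles, RU-486 minus vehicle) and in its presence (squares, both steroids minus progesterone), 2 against 2 arrays each, with bars for the SE. Each SE comes from a spread pooled over all 4 groups, so a gene's 2 bars have the same length. All genes except SPRED1 lie to the right of 0 in both, and ETV4 has the widest gap between them, 0.22 against 0.78.

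Each steroid treatment was also set against vehicle, and these 3 comparisons share the vehicle arrays. After progesterone alone all 10 genes had a lower mean than vehicle, from -0.34 for ETV1 and -0.33 for SPRY4 to -0.01 for DUSP5, which turned above 0 with quantile normalization and with median centring. Of all genes 51.2% were higher. The arrays did not overlap, downward, for 5 members (SPRY2, SPRY4, SPRED2, ETV1 and ETV4), where 15.8% of all genes separated so, and 0 members and 0% of all genes were called. Without progesterone replicate 2 the means of DUSP4, DUSP5, DUSP6 and ETV5 were above vehicle, at 0.09, 0.09, 0.01 and 0.04. SPRED1 was above vehicle, at 0.02, without progesterone replicate 1, and also without vehicle replicate 2, so 5 of the 10 signs depended on a single array.
After the combination 8 genes had a higher mean than vehicle, where 67.5% of all genes did, and ETV1 and SPRED1 a lower one, at -0.18 ± 0.11 and -0.33 ± 0.13 (SE). Without combination replicate 1 these were -0.11 and -0.19, and ETV4 was at 0.35. The arrays did not overlap for any of the 10, upward for 8 (42.7% of all genes) and downward for 2 (18.8%). ETV4 stood at 0.54 ± 0.14, DUSP6 at 0.45 ± 0.16, ETV5 at 0.44 ± 0.13, SPRY2 at 0.43 ± 0.12 and DUSP4 at 0.37 ± 0.12, each with a limma adjusted p of 0.374, so 0 members passed, as did 0% of all genes.
Against RU-486 alone, the combination was higher for 6 and lower for 4 of the genes, where 61.1% of all genes were higher, and 0 members were called (0% of all genes). The arrays separated upward for 4 members (33.3% of all genes) and downward for 2 (17.1%). ETV4 was higher by 0.32 ± 0.14 and ETV1 lower, at -0.33 ± 0.11 (limma adjusted p = 0.769 each). Without combination replicate 1 the value of ETV4 was 0.13, and without RU-486 replicate 2 that of ETV1 was -0.21. The means of DUSP6, SPRY2, SPRY4 and ETV5 lay on the other side of 0 with at least 1 array left out. DUSP6, SPRY2 and ETV5 stood at -0.04 ± 0.16, 0.02 ± 0.12 and 0.04 ± 0.13, with 95% intervals of -0.43 to 0.35, -0.27 to 0.31 and -0.28 to 0.35.

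Relatives within a family were also set side by side on the same array, as the difference of their log2 values, for 8 pairs chosen after the values were seen. The RU-486 difference of DUSP6 exceeded that of DUSP5 by 0.39 ± 0.12 and that of DUSP4 by 0.27 ± 0.07 (SE). SPRED2 exceeded SPRED1 by 0.37 ± 0.13, ETV4 exceeded ETV1 by 0.34 ± 0.16 and ETV5 exceeded ETV1 by 0.33 ± 0.13. SPRY4 and SPRY2 stood -0.11 ± 0.06 apart, and ETV5 and ETV4 -0.01 ± 0.08. For progesterone ETV4 and ETV5 stood above ETV1 by 0.37 ± 0.16 and 0.28 ± 0.13. An exact two-sided permutation test of 4 against 4 arrays cannot give a p below 0.0286, so over 16 such tests a single pair could not pass after adjustment, and these values are given as a description.

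Across the 8 arrays most of the 10 genes varied together, with SPRED1 apart and ETV1 following the others less closely. Pearson's r of ETV1 with the other members ran from 0.04 for DUSP5 to 0.70 for SPRY4. Over their 45 pairs Pearson's r had a median of 0.82, was above 0 in 37 and ran from -0.79 for DUSP5 with SPRED1 to 0.98 for DUSP6 with SPRY2. After each group's mean was removed the median r was 0.54, with 0.90 for DUSP6 and SPRY2 and 0.92 for SPRED1 and ETV1. These values rest on the gap between the 2 replicates of each group. The progesterone gap was the widest, with an SD across genes of 0.35 log2 units. These are descriptions over 8 arrays, in which the points share labelling, scan and normalization with all other genes.
The genes outside the list with the highest r to DUSP6 were CCN3 (0.996), VAT1L (0.986) and MYC (0.981), among 13333 genes with means above 6.22. SPRY4 was followed by CCN1 (0.984), GATA3 (0.981) and PARD6A (0.971), and ETV5 by PYCR1 (0.990), TIMP4 (0.986) and MYC (0.984). Of these, VAT1L, at 0.49 ± 0.09, PYCR1, at 0.49 ± 0.09, and MYC, at 0.41 ± 0.09, had the highest RU-486 differences, and none passed (limma adjusted p = 0.235, 0.263 and 0.333). Genes picked for following members chosen with their values known will tend to share the RU-486 difference, so it is a description only.

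Other genes of the ERK route showed smaller median differences with RU-486 than the 10 genes did, and 0 passed in any of these lists in limma (0.0326% of all genes did). The 10 genes were chosen with their values known. Their larger median comes with that choice and is given as a description. For the counts and medians of all these lists, 62.5% of all genes had a higher mean and the median over all genes was 0.03. Of 9 other feedback inhibitors 8 had a higher mean, with a median of 0.08. SPRY1, another Sprouty gene, stood at 0.25 ± 0.12 (limma adjusted p = 0.477), ERRFI1, an inhibitor of the EGF receptor, at 0.15 ± 0.06 (limma adjusted p = 0.440), LRIG3 at -0.22 ± 0.08 and CBL, a ubiquitin ligase of receptors, at 0.09 ± 0.05. The arrays of SPRY1, ERRFI1 and CBL did not overlap, 3 of 9 genes upward against 4.51% of all genes. Of 7 other MAP kinase phosphatases 5 were higher with a median of 0.02, and DUSP9, DUSP7, DUSP16 and DUSP1 stood at 0.14, 0.08, -0.07 and 0.07.

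Of 15 measured ERK-induced genes outside the 10, 8 were higher and 7 lower with RU-486, with a median of 0.03. MYC, a growth-promoting transcription factor, was at 8.47 and 8.39 in vehicle, 8.47 and 8.12 in progesterone, 8.65 and 8.82 in RU-486 and 8.77 and 8.83 in the combination, above all other arrays in the RU-486 groups. EGR1, an immediate early factor that ERK induces within minutes, was at 10.6 and 10.5 in vehicle, 10.4 and 9.91 in progesterone, 10.0 and 9.84 in RU-486 and 9.78 and 10.1 in the combination. Its difference was -0.45 ± 0.13 (limma adjusted p = 0.421), with its highest arrays in vehicle. EPHA2, a receptor kinase, stood at 0.23 ± 0.08 (limma adjusted p = 0.427), while LIF, a cytokine, had a mean of 6.15, below the level of 6.22 that marks the dim end, so no difference is given for it.

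The other ETS factors had a median of -0.07 with RU-486, 5 of 13 being higher. ETS2 stood at 0.32 ± 0.07 (limma adjusted p = 0.339), and ELF2, GABPA and ELF1 at -0.39 ± 0.10, -0.66 ± 0.20 and -0.30 ± 0.11. The arrays did not overlap, upward, for ETS2 and, downward, for ELF1, ELF2 and ETS1 (the last named after its values were seen), or 3 of 13 genes against 1.09% of all genes. Those of GABPA overlapped, and its progesterone replicates were at 8.42 and 9.25. In the RAS-ERK cascade 8 of 15 measured genes were higher, with a median of 0.04. PTPN11, a phosphatase that promotes RAS activation, stood at -0.26 ± 0.08, the exchange factor SOS2 at -0.54 ± 0.19, the kinase ARAF at 0.14 ± 0.06 and RPS6KA3, a kinase that ERK activates, at -0.28 ± 0.12. No cascade gene separated the arrays with RU-486 from those without, and SOS2 was at 8.97 and 9.69 in progesterone. Of 12 receptor tyrosine kinases 9 were higher, where 62.5% of all genes were, with a median of 0.05. FGFR3, AXL, FGFR1 and FGFR4 stood at -0.18, 0.13, 0.13 and 0.10. CIC and its partner ATXN1 stood at -0.01 ± 0.05 and 0.01 ± 0.06.

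**Figure D4:**
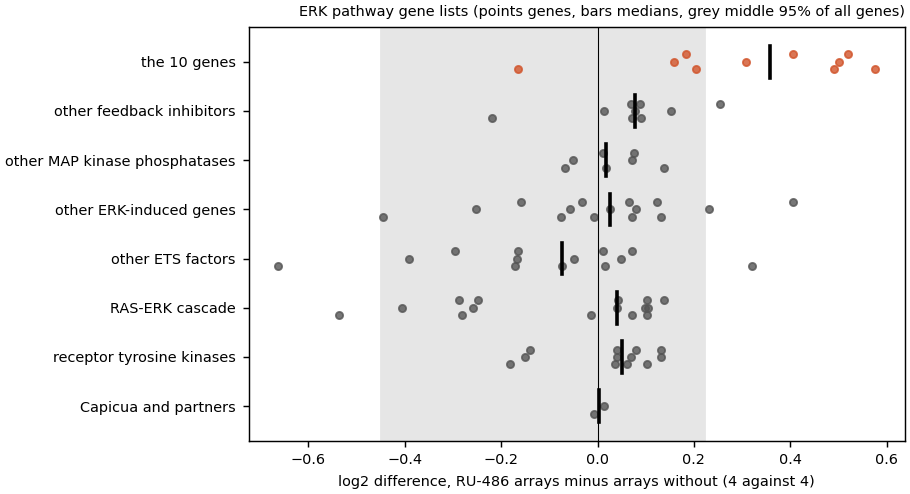
Log2 differences for arrays with against arrays without RU-486 (4 against 4), a point for each measured gene, a bar for each list's median, and a grey band for the middle 95% of all genes. The 10 genes, chosen with their values known, have a median of 0.36 and the other 7 lists medians between -0.07 and 0.08. Of those lists, MYC, ETS2, SPRY1 and EPHA2 are the points above the band, and GABPA (-0.66) and SOS2 (-0.54) those below its lower edge of -0.45. The arrays with and without RU-486 overlapped for EPHA2, GABPA and SOS2.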

How the data were processed

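The authors deposited a table of log2 expression values for 33297 probe sets on 8 arrays. RMA, oligo and limma are named in the submitters' processing notes, with no version. This method equalises arrays, so a shift shared by most genes would be removed and differences of dim genes compressed. Sample titles gave the groups and replicate numbers. Some label fields write RU-484, taken here to mean RU-486. Of the probe sets, 19460 have 1 gene symbol in the platform annotation, 1754 several and 12083 none listed. The probe set with the highest mean was kept for each gene, which left 18417 genes, with no filter on dim ones.

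The lmFit and eBayes steps of limma 3.58.1 (R 4.3.3) used the 4 group means, with 4 residual degrees of freedom and 8 contrasts, and adjusted by Benjamini-Hochberg over all genes at 0.05. Each gene's spread was pooled over the 4 groups, so the SE of a pair of groups also reflects the groups outside it. The number of arrays limits the precision. Same-numbered arrays deviated together in all 6 pairs of groups (r of the deviations from the group means from 0.197 to 0.511). The main fit had no term for this, so its SEs, intervals and p-values are unpaired. The numbers were taken as pairing the arrays only in an alternative fit, the replicate block. The pairing comes from the data, since the labels do not say what a number shares. Alternatives were this replicate block, quantile normalization, median centring, the mean of probe sets, a filter on dim genes, a trended robust prior, array weights, fits of only the compared groups, and leaving out each array. The fit was tested on simulated data.

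The members and gene lists were chosen with earlier results of these data known. The comparison of relatives was added after the data were seen. Named genes are all members, up to 4 genes of each list with the smallest p for RU-486, and the 3 genes most correlated with DUSP6, SPRY4 and ETV5. MYC, listed for ERK, appears under both.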

Additional observations from a re-analysis of the deposited data

Results flagged for a closer look

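ETV4 was lower on both progesterone arrays than on both vehicle arrays, and higher on both combination arrays than on both RU-486 arrays, so the 2 estimates of the progesterone difference, -0.24 and 0.32, pointed opposite ways. They were -0.13 without progesterone replicate 2 and 0.13 without combination replicate 1. The interaction was 0.56 ± 0.20 (SE) and did not pass (limma adjusted p = 0.828). SPRED2 had the same pattern, with -0.15 and 0.10 and an interaction of 0.25 ± 0.13 (limma adjusted p = 0.828). Without the same arrays its estimates were -0.06 and 0.05. Its combination replicate 2 was barely above RU-486 replicate 2, at 9.8778 against 9.877 log2 units. With 2 arrays in each group no single array could be checked as an outlier.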

How the results depend on the processing

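Counts of called genes moved with the settings, while 0 of the 10 genes were called in any comparison under any setting that kept all arrays. For the average RU-486 effect the count over all genes was 6, and it was 12 with the filter on dim genes and 43 with the trended robust prior. For RU-486 against vehicle array weights gave 3 in place of 0, for the combination against vehicle array weights gave 7 and the replicate block 1, and for the combination against progesterone the trended robust prior gave 17. The progesterone arrays had a weight of 0.34 each, against 1.19 to 1.67 for the others. Leaving out each array in turn, the counts ran from 0 to 998 for the average RU-486 effect, from 0 to 1228 for progesterone against vehicle and from 0 to 1090 for the combination against progesterone, and the members called from 0 to 6 in the first and from 0 to 5 in the last. These highest counts came without progesterone replicate 1, or, for progesterone against vehicle, without progesterone replicate 2. The replicate block changed no other call. Of 80 member differences, 16 changed sign under at least 1 setting, 0 of them in the average RU-486 effect. In 1239 of 1250 refits the member stayed on its side of the threshold, and in 11, all without progesterone replicate 1, it passed. The 16 differences between relatives moved by less than the spread between replicates in all 240 refits. Their settings were chosen after the data were seen, and no depth is known for arrays.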
